A study of Homo sapiens with 6 samples.

Results

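PAX3, PAX7, SIX2, SIX4, EYA1, EYA2, EYA4, DACH1 and MEOX2 are transcriptional regulators of the muscle lineage, and all probes carrying 1 of these 9 gene names in the array files were taken. They numbered 15 of the 41000 probes, for 9 of the 17843 genes on the array. RH36, an embryonal rhabdomyosarcoma (ERMS) line that lacks the PAX3/FOXO1 fusion, received pre-miR-27a, a precursor that raises miR-27a, or the negative precursor (pre-control) by transient transfection. The comparison asks which of these genes change when miR-27a is raised. Each group had 3 arrays (n = 3), whose labels call them biological replicates. The labels give 10 nM of either precursor and 48 h for the pre-miR-27a arrays, the study's methods give a larger amount and a shorter time, and which applied was not settled. RH36 is a single tumour line and the transfection was transient, so both groups stand for 1 genetic background. PAX3 signals here come from the unfused gene, since the fusion is absent.

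PAX3 and PAX7 bind DNA through a paired domain and a homeodomain, specify muscle progenitors in the embryo and, for PAX7, maintain satellite cells, the stem cells of adult muscle. The sine oculis homeobox proteins, to which SIX2 and SIX4 belong, bind DNA and work together with EYA proteins, which are coactivators and phosphatases that do not bind DNA themselves. DACH1 is a cofactor, often a corepressor, of the same network, and MEOX2 is a homeodomain factor of limb muscle precursors. The network acts upstream of the myogenic factors MYF5, MYOD1 and MYOG, of which ERMS cells characteristically express MYOD1 and MYOG. A microRNA pairs with transcripts mainly through its seed, and mouse Pax3 is a known target of the miR-27 family in muscle progenitors. PAX3 and EYA4 are also in the study's list of predicted miR-27a targets, a list that was chosen partly on these same arrays. The study kept in it only predicted targets that it had called changed and that fell in functional categories enriched among them. Its results speak of genes changed up and down, its methods of anti-correlated targets, and which of these the list holds was not settled. Every probe of PAX3 and EYA4 read higher on average on pre-miR-27a arrays here. The study's results describe its test for changed genes as paired.

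The mature sequences of the family are shown because every comparison here concerns the first of them. They are RefSeq sequences of GRCh38.p14, 21 bases long, with the seed, bases 2 to 8, in capitals. The first lies on the minus strand at chr19:13836447-13836467 and the second on the plus strand at chr9:95085505-95085525.
miR-27a-3p: uUCACAGUggcuaaguuccgc
miR-27b-3p: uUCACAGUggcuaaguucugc
Both have the same seed.

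Of the 15 probes, 1 passed the test between the groups. It was a probe for EYA4, which was higher on pre-miR-27a arrays by 0.54 on the log2 scale. No probe was called lower, and no probe for PAX3, PAX7, SIX2, SIX4, EYA1, EYA2 or DACH1 was called in either direction. MEOX2 gave no signal well above background. A signal here is the log2 of the background-subtracted intensity after quantile normalization, a difference is pre-miR-27a mean minus pre-control mean, and a call is a limma adjusted p under 0.05, adjusted over all probes kept. A probe was kept when its spot was found on at least 5 of 6 arrays, which held for 13 of the 15. The 1 call among 13 kept probes stood against a background of 7.83% of all kept probes called in either direction and 3.95% called higher. The split of all calls was 1440 higher and 1416 lower, and under 75th percentile scaling it was 1275 higher and 1981 lower.

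**Figure D1:**
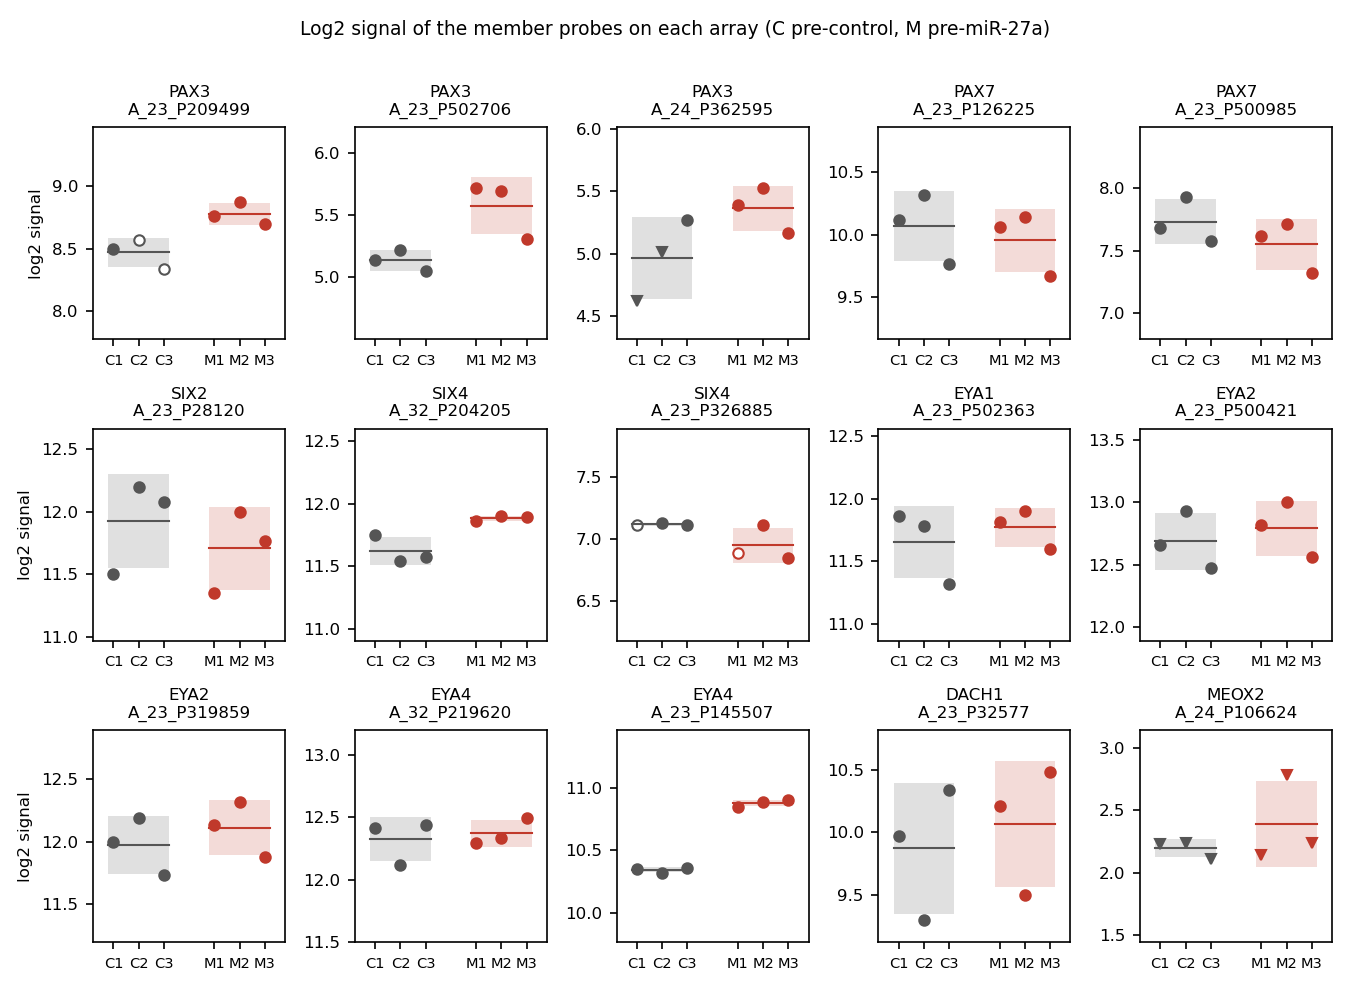
Log2 signal of the 15 member probes on each array (C, pre-control; M, pre-miR-27a; numbers are replicates), with the group mean as a line and 1 SD as a band; every panel spans the same height on the log2 axis. Open symbols mark arrays where the spot was not found, and triangles mark arrays where it was not well above background. The groups are farthest apart, relative to their bands, for EYA4 probe A_23_P145507.

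Among all 36469 kept probes the median difference was −0.022 and the median size of a difference 0.21. Among the 13 kept member probes these medians were 0.14 and 0.19. Leaving out MEOX2, 9 of the 12 other kept probes had a difference above 0 and 3 below 0, and 46.4% of all kept probes had one above 0. The 3 kept probes whose groups did not overlap (PAX3 A_23_P502706, SIX4 A_32_P204205 and EYA4 A_23_P145507) stood against 32.5% of all kept probes without overlap. The same 3 probes had an unadjusted p under 0.05 in limma, as had 24.8% of all kept probes. The largest difference of the 15 probes was 1.45-fold (EYA4 A_23_P145507), and how many of all probes differed as much was not counted. With 3 arrays a group, the smallest two-sided p of an exact permutation test is 0.1, so single probes are given with limma's values.

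Slide 1 held every pre-control array and slide 2 every pre-miR-27a array, so for each value below the slide and the transfection cannot be told apart. Median local background ran from 74.5 to 76 intensity units in the pre-control group but from 52.5 to 53 in the other. Spots well above background made up 69.9% to 73.9% in the former and 74.1% to 78.0% in the latter, and 0 were saturated. In RNA from a whole culture, a change within each cell and a change in the share of cells that carry a transcript cannot be told apart. Of the muscle markers, MYOD1, MYOG, DES, CHRNA1 and CDH15 were well above background on all 6 arrays, and MYF5 had no kept probe. These 5 summed to linear signals of 125739 to 162625 on pre-control and 113328 to 145467 on pre-miR-27a arrays. All 5 differences were below 0, from −0.95 (MYOG) to −0.014 (DES), with a median of −0.35. By brightest kept probe 0 were called, though another CHRNA1 probe was, in a count of either direction that does not give its sign. An unadjusted limma p under 0.05 was found for 3, against 22.9% of all genes. With the replicate number as a block, limma called MYOD1, MYOG and CDH15 lower, against 13.5% of all genes called. Epithelial CDH1 and EPCAM, blood PTPRC and endothelial PECAM1 were well above background on 0 arrays, and KRT5 had no kept probe. The other markers of these lists were detected: CD14, CD3E and VWF were well above background on all 6 arrays and CDH5 on 3. The 3 blood markers summed to 347 to 382 on pre-control and 241 to 255 on pre-miR-27a arrays, with CD14 (difference −0.71, limma adjusted p = 0.0223) and CD3E (−0.44, limma adjusted p = 0.0348) called lower. The endothelial markers summed to 115 to 209 and 112 to 126, with VWF at −0.083 and CDH5 at −0.30 not called (limma adjusted p = 0.661 and 0.893). The part of slide, local background and these markers in the results below was not tested.

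EYA4, a phosphatase and coactivator of sine oculis factors, has 2 probes that gave different answers. Probe A_23_P145507 (hg18, chr6:133892056-133892115), which the files assign to 3 RefSeq transcripts of the gene, read 10.35, 10.32 and 10.36 on pre-control arrays and 10.85, 10.89 and 10.90 on pre-miR-27a arrays. The gap between the groups was many times the spread within either of them. The means were 10.34 ± 0.02 (SD, n = 3) and 10.88 ± 0.03 (SD, n = 3), a difference of 0.54 ± 0.07 (SE) or 1.45-fold, with a 95% interval of 1.29- to 1.64-fold and a limma adjusted p of 0.0191. The unnormalized intensities were already apart, with 1231 to 1434 units on pre-control and 1726 to 1890 units on pre-miR-27a arrays. Within-group SDs of the 13 member probes well above background on all arrays ran from 0.014 to 0.53. With pre-control replicate 1 left out the adjusted p was 0.0481, and with any of the other 5 arrays left out it lay above the threshold, up to 0.0770, while the difference stayed between 0.53 and 0.55. Leaving out any of 4 of those 5 arrays left 0 calls among all 36469 kept probes.

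Probe A_32_P219620 (hg18, chr6:133894789-133894848), which the files assign to an Ensembl transcript of EYA4 and which is the brighter, read 12.41, 12.12 and 12.44 on pre-control arrays and 12.29, 12.33 and 12.49 on pre-miR-27a arrays. These values interleave, and the difference was 0.049 ± 0.12 (SE, limma adjusted p = 0.845) with a 95% interval of 0.84- to 1.27-fold. The probes start 2733 bases apart. On each array the brighter probe exceeded the other by 2.07, 1.80 and 2.07 on pre-control and by 1.44, 1.45 and 1.59 on pre-miR-27a arrays. The gap was 1.98 ± 0.15 on pre-control and 1.49 ± 0.08 on the other arrays (SD, n = 3 each) with no overlap, which gave the smallest exact two-sided permutation p the design allows, 0.1, or 0.35 adjusted over the 7 pairs of probes compared. With the gene taken as the mean of its kept probes, the EYA4 difference was 0.29 (limma adjusted p = 0.118). By its brightest kept probe, 0 of the 9 genes were called in either direction, against 6.65% of the 16612 genes with a kept probe.

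**Figure D2:**
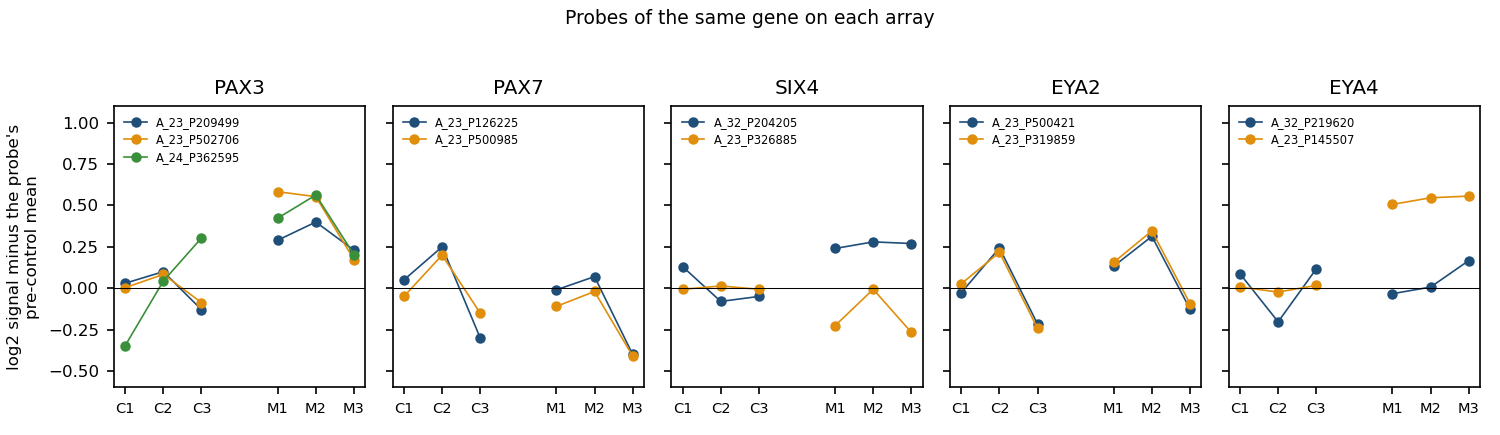
Log2 signal of each probe minus that probe's own pre-control mean, on each array, for the 5 genes with more than 1 probe (C, pre-control; M, pre-miR-27a). The probes of PAX7 and of EYA2 follow each other array by array, those of PAX3 all lie above 0 on pre-miR-27a arrays, and those of EYA4 and SIX4 part there.

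PAX3, the paired-box factor of embryonic muscle progenitors, has 3 probes, each with a pre-miR-27a mean above the pre-control mean, and none passed the test. The brightest, A_23_P209499 (hg18, chr2:222773025-222773084), matches 4 RefSeq transcripts of the gene and was well above background on all 6 arrays. It read 8.50, 8.57 and 8.34 on pre-control and 8.76, 8.87 and 8.70 on pre-miR-27a arrays, with no overlap. The spot was not found on pre-control replicates 2 and 3, so the probe was not kept. Fitted without the filter on found spots, its means were 8.47 ± 0.11 and 8.78 ± 0.09 (SD, n = 3 each) and the difference 0.31 ± 0.10 (SE, limma adjusted p = 0.126), a 95% interval of 1.05- to 1.46-fold. In that fit 7.30% of all probes were called and 1 of the 15 member probes was, the same EYA4 probe. Before normalization the intensities of the groups overlapped, with 344 to 398 units against 391 to 462 units.

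The other PAX3 probes lie 55 bases apart, start to start, and 94180 or 94235 bases from the first. The files assign them to the same 3 RefSeq transcripts, which are not among the 4 above. Probe A_23_P502706 (hg18, chr2:222867260-222868545, a span of 1286 bases for a probe of 60) read 5.14, 5.22 and 5.05 on pre-control and 5.72, 5.69 and 5.31 on pre-miR-27a arrays. The groups did not overlap, and the third pre-miR-27a array was the nearest to the controls. Unnormalized intensities did overlap, with 34.9 to 40.3 units on pre-control and 35.9 to 51.1 units on pre-miR-27a arrays. The means were 5.14 ± 0.08 and 5.57 ± 0.23 (SD, n = 3 each), the difference was 0.43 ± 0.13 (SE, limma adjusted p = 0.119), and the 95% interval was 1.07- to 1.70-fold. This probe is dim. Its spot was 2.77 to 3.23 times its local background on pre-control arrays and 2.19 to 2.43 times on pre-miR-27a arrays, and with normexp background correction the difference was 0.19. Probe A_24_P362595 (hg18, chr2:222867205-222867264) read 4.62, 5.01 and 5.27 on pre-control, where 1 of 3 arrays was well above background, and 5.39, 5.53 and 5.17 on pre-miR-27a arrays. Its groups overlapped, and the difference was 0.39 ± 0.19 (SE, limma adjusted p = 0.278).

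In the main setting PAX3, by its brightest kept probe, had the largest difference of the member genes. With normexp correction SIX2 (−0.31), SIX4 (0.28) and MEOX2 (0.24) exceeded PAX3 (0.19) in size, and under 75th percentile scaling MEOX2 did (−0.47 against 0.34). DACH1 did with pre-miR-27a replicate 2 left out (0.48 against 0.38) and with pre-control replicate 3 left out (0.43 against 0.39). The genes whose array-centred signals were most like that probe's over the 6 arrays, among 13254 genes well above background on all of them, were ANP32B (root mean square difference 0.05), ARHGAP5 (0.06) and UBTF (0.06). Their own differences were 0.47, 0.47 and 0.48, close to that of PAX3 because they were selected on the same 6 arrays.

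PAX7, the satellite cell factor, read below its control mean on both probes, by less than the range of values within either group. Probe A_23_P126225 (hg18, chr1:18935128-18935187) read 10.12, 10.32 and 9.77 on pre-control and 10.06, 10.14 and 9.67 on pre-miR-27a arrays. The values interleave, and the difference was −0.12 ± 0.20 (SE, limma adjusted p = 0.770), a 95% interval of 0.66- to 1.29-fold. Probe A_23_P500985, whose match spans 32395 bases (hg18, chr1:18902351-18934745), read 7.68, 7.93 and 7.58 on pre-control and 7.62, 7.71 and 7.32 on pre-miR-27a arrays. Its difference was −0.18 ± 0.15 (SE, limma adjusted p = 0.511), a 95% interval of 0.69- to 1.13-fold. Both probes were lowest on replicate 3 and highest on replicate 2 in both groups. The PAX3 and PAX7 differences were thus opposite in sign, but neither passed the test and the difference between them was not tested.

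SIX2 and SIX4, the DNA-binding partners of EYA proteins, were well above background on all arrays. SIX2 has 1 probe, A_23_P28120 (hg18, chr2:45086766-45086825), which read 11.50, 12.20 and 12.08 on pre-control and 11.35, 12.00 and 11.77 on pre-miR-27a arrays. Replicate 1 was lowest in both groups, and the difference was −0.22 ± 0.25 (SE, limma adjusted p = 0.650) with a 95% interval of 0.56- to 1.32-fold.

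SIX4 has 2 probes of opposite sign. The brighter, A_32_P204205 (hg18, chr14:60246272-60246331), read 11.75, 11.54 and 11.57 on pre-control and 11.86, 11.90 and 11.89 on pre-miR-27a arrays. The groups did not overlap, and the difference was 0.26 ± 0.09 (SE, limma adjusted p = 0.137) with a 95% interval of 1.03- to 1.40-fold. Unnormalized intensities did overlap, with 2996 to 3811 units on pre-control and 3351 to 3841 units on pre-miR-27a arrays. The other, A_23_P326885 (hg18, chr14:60250190-60250249), was found on 4 arrays only and not kept, though well above background on all 6. It read 7.11, 7.13 and 7.11 on pre-control and 6.89, 7.11 and 6.85 on pre-miR-27a arrays, and fitted without the filter it differed by −0.17 ± 0.09 (SE, limma adjusted p = 0.350). Both match the same RefSeq transcript and start 3918 bases apart. The gap between them on each array was 4.65, 4.40 and 4.46 on pre-control and 4.98, 4.79 and 5.04 on pre-miR-27a arrays. Its mean was 0.43 larger on the latter with no overlap (exact two-sided permutation p = 0.1, 0.35 adjusted over the 7 pairs).

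EYA1 and EYA2, the other coactivators, differed by little on any probe. EYA1 probe A_23_P502363 (hg18, chr8:72272570-72272629) read 11.86, 11.78 and 11.32 on pre-control and 11.81, 11.90 and 11.60 on pre-miR-27a arrays, a difference of 0.11 ± 0.17 (SE, limma adjusted p = 0.742) with a 95% interval of 0.80- to 1.46-fold. EYA2 probe A_23_P500421 (hg18, chr20:45250751-45250810) read 12.66, 12.93 and 12.47 on pre-control and 12.82, 13.00 and 12.56 on pre-miR-27a arrays, a difference of 0.11 ± 0.17 (SE, limma adjusted p = 0.751). Its 95% interval was 0.81- to 1.44-fold. The second EYA2 probe, A_23_P319859, starts 248 bases away (hg18, chr20:45250503-45250562) and read 12.00, 12.19 and 11.73 on pre-control and 12.13, 12.32 and 11.88 on pre-miR-27a arrays. Its difference was 0.14 (limma adjusted p = 0.678). Of the 7 pairs of probes the EYA2 pair varied least over the 6 arrays, with a gap of 0.66 to 0.75 on pre-control and 0.68 to 0.69 on pre-miR-27a arrays.

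DACH1, a cofactor of the network, had the widest spread between replicates of the member probes. Probe A_23_P32577 (hg18, chr13:70910376-70910435) read 9.97, 9.30 and 10.34 on pre-control and 10.21, 9.50 and 10.48 on pre-miR-27a arrays. Replicate 2 was lowest and replicate 3 highest in both groups, and the difference was 0.20 ± 0.36 (SE, limma adjusted p = 0.785) with a 95% interval of 0.62- to 2.13-fold.

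MEOX2, the homeodomain factor of limb muscle precursors, has 1 probe. Probe A_24_P106624 (hg18, chr7:15617744-15617803) read 2.23, 2.24 and 2.11 on pre-control and 2.14, 2.78 and 2.24 on pre-miR-27a arrays. The lowest signals well above background on the 6 arrays were 3.61 to 5.01, so no fold is given.

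**Figure D3:**
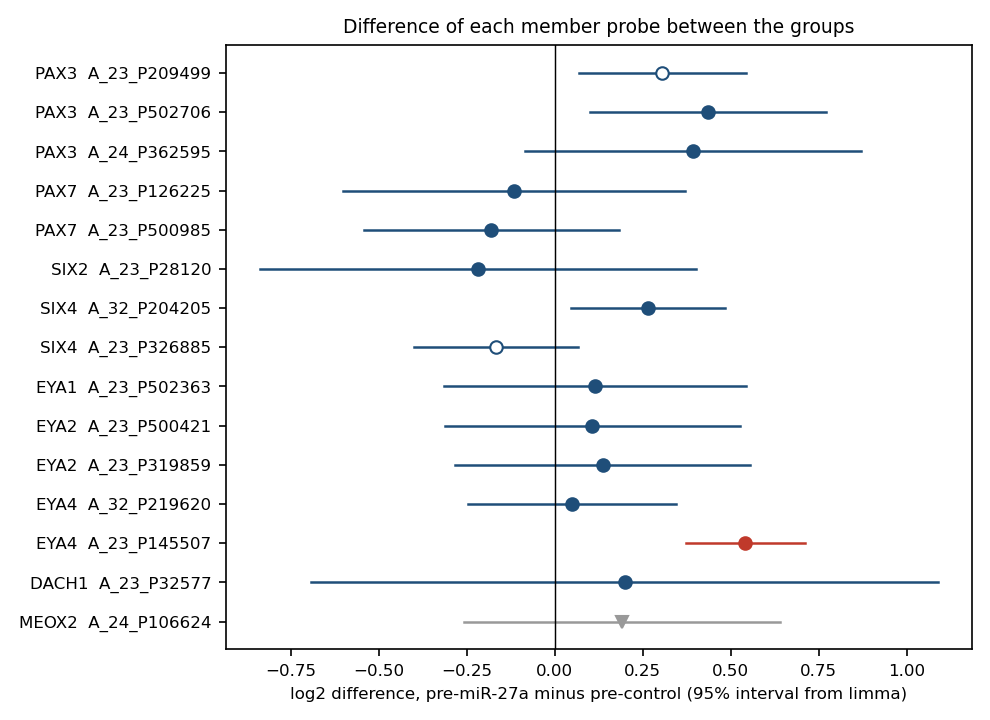
Difference in log2 signal (pre-miR-27a minus pre-control) of the 15 member probes with 95% intervals from limma; 0 means no difference. Red marks the 1 called probe (EYA4 A_23_P145507), open symbols the 2 probes that were not kept (fitted without the filter), and the grey triangle MEOX2, which was not well above background; the DACH1 interval is the widest.

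Much of the spread of these genes was shared by arrays of the same replicate number. The same replicate was lowest in both groups for 9 of the 15 probes and highest in both groups for 10. The 15 hold more than 1 probe for 5 of the genes. This sharing is not particular to the members, since same-numbered arrays deviated together over 31717 probes (r = 0.40, 0.46 and 0.41). Taken number by number, the 3 differences were 0.24, 0.20 and 0.15 for DACH1, where the spread within a group had spanned about 1 log2 unit. They were −0.15, −0.20 and −0.31 for SIX2. PAX7 gave −0.06, −0.18 and −0.10 by probe A_23_P126225 and −0.06, −0.22 and −0.26 by A_23_P500985 (limma adjusted p with the replicate block = 0.238 and 0.160). EYA2 gave 0.16, 0.07 and 0.09 by A_23_P500421 and 0.13, 0.12 and 0.16 by A_23_P319859 (0.247 and 0.155 in the same fit). EYA4 probe A_23_P145507 gave 0.51, 0.57 and 0.54, while its brighter partner gave −0.12, 0.21 and 0.05. For PAX3, probe A_23_P209499 gave 0.26, 0.30 and 0.35 and probe A_23_P502706 gave 0.58, 0.47 and 0.26. All 3 differences had the same sign in 9 of the 13 kept member probes, and in 60.1% of all kept probes. With the replicate number as a block, limma called 14.9% of all kept probes and still 1 of the 13 member probes, EYA4 A_23_P145507 (adjusted p = 0.0334). The standard error fell to 0.05 for DACH1 (adjusted p = 0.0933) and to 0.06 for SIX2 (adjusted p = 0.0983), and neither passed. Of the kept member probes that were not called, the dim PAX3 probe A_23_P502706 came nearest to the threshold. Its limma adjusted p was 0.0572 with the block, against 0.119 without it.

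**Figure D4:**
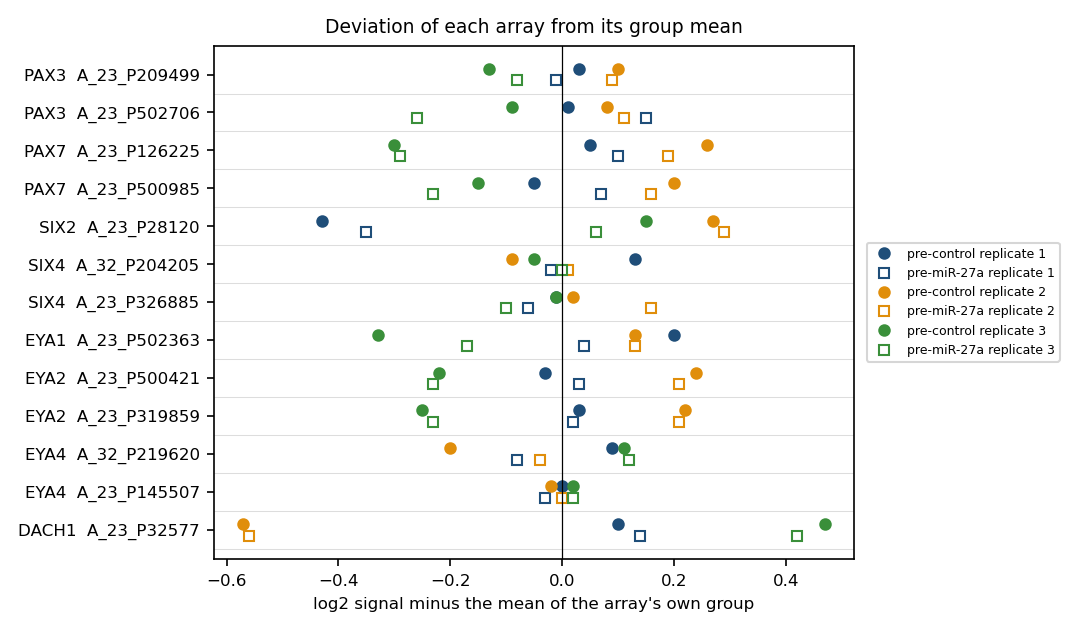
Log2 signal of each array minus the mean of its own group, for the 13 member probes well above background on all arrays; filled circles are pre-control, open squares pre-miR-27a, and colours the replicate numbers. Same-coloured symbols lie close together for DACH1 (replicate 2 low in both groups), SIX2 (replicate 1 low) and EYA2 and PAX7 (replicate 3 low), and the EYA4 A_23_P145507 symbols all sit near 0.

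Other genes of these families, known targets of the DNA-binding members, and satellite cell genes were taken as 3 lists, each gene by its brightest kept probe, beside a median difference of −0.039 over all 16612 genes. Of those genes, 22.9% had an unadjusted p under 0.05, 6.65% were called, and 13.5% were called with the replicate block. Of 13 other genes of the member families (PAX, sine oculis, EYA, DACH and MEOX), 11 had a kept probe. Differences were above 0 in 2 and below 0 in 9, with a median of −0.24 (−0.26 over the 8 well above background on any array), and 0 were called (3 at an unadjusted p under 0.05). EYA3 differed by −0.31 ± 0.10 (SE, limma adjusted p = 0.127). DACH2, SIX3 and SIX6 were well above background on 0 arrays. With the replicate block 1 gene was called, PAX9, at −0.58 (limma adjusted p = 0.0475).

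Of 12 target genes, 11 had a kept probe, 4 with a difference above 0 and 7 below 0 (median −0.027, or −0.024 over the 10 detected), and 0 were called. An unadjusted p under 0.05 was found for 3 of the 11, against 22.9% of all genes. MYOD1 differed by −0.45 ± 0.12 (SE, limma adjusted p = 0.0787) and MYOG by −0.95 ± 0.32 (SE, limma adjusted p = 0.140). With the replicate block, which called 13.5% of all genes and 4 of these 11, both were called lower (adjusted p = 0.0363 and 0.0334), and CCND1, the G1 cyclin, and SPRY1, a feedback inhibitor of receptor tyrosine kinase signalling, were called higher. Their differences were 0.62 and 0.37, with limma adjusted p = 0.0374 and 0.0398 in that fit and 0.240 and 0.163 without the block. FGFR4, a receptor that PAX3 is known to induce, differed by −0.067 ± 0.15 (SE, limma adjusted p = 0.831), and MET, another, by 0.034 ± 0.11 (SE, limma adjusted p = 0.892).

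All 9 satellite cell genes had a kept probe, 2 with a difference above 0 and 7 below 0 (median −0.11), and 0 were called. An unadjusted p under 0.05 was found for 2 of the 9, against 22.9% of all genes. CXCR4, CALCR and VCAM1 were well above background on 0 arrays, and over the other 6 genes the median was −0.22, with 1 difference above 0 and 5 below 0. With the block, against 13.5% of all genes, 3 were called lower, namely CDH15 or M-cadherin at −0.35, the laminin receptor subunit ITGA7 at −0.48 and the syndecan SDC4 at −0.45 (limma adjusted p = 0.0457, 0.0353 and 0.0451). Without it these were at 0.0561, 0.254 and 0.0732. None of these 3 lists held a gene called by its brightest probe without the block, so the genes given by name were picked after their values were seen.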

How the data were processed

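Total RNA from 6 samples was hybridized singly (Cy3) to Agilent whole human genome arrays, and the authors deposited processed spot intensities from Agilent Feature Extraction 10.5.1.1, which subtracts background within the array, with mean and local background intensities and quality flags. The authors also deposited a table of quantile-normalized log2 values, used as an alternative (0 columns left unused). Here control spots were left out, log2 processed intensities were quantile normalized, spots with a found flag of 0 were set to missing, spots of a probe were averaged, and probes missing on more than 1 array were removed. limma 3.58.1 (R 4.3.3, files read with version 1.17.8 of data.table) compared the groups with Benjamini-Hochberg adjustment over 36469 probes. The methods name SAM, and limma took its place as the test giving an adjusted p per probe. Precision is limited by having 3 arrays a group, with a median standard error of 0.14.

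The scripts were tested on simulated data. Gene names of the members are those of the files, other genes were matched through RefSeq (GRCh38.p14, 25260 of the kept probes), and positions are on hg18 as the files give them. Exon annotation of that build was not used here. A gene with several probes is represented by the kept probe with the highest mean signal. The members and lists were chosen with earlier results of these data known. A gene of the list of other family genes is not reported here and is left out of its counts. The rule for naming took all members, at most 5 genes a list with an adjusted p under 0.05 and well above background in the higher group, and the 3 genes most like PAX3, which is also the member with the largest difference in the main setting. No gene of the family, target and satellite cell lists met it, and those named were picked after their values were seen. Same-numbered arrays deviated together (r = 0.40, 0.46 and 0.41 over 31717 probes for replicates 1, 2 and 3; −0.27 to −0.12 between different numbers), so the numbers in the labels were taken to pair the arrays. Alternatives were 75th percentile scaling, normexp correction (offset 50), no filter, a filter on probes well above background on at least 3 arrays, the deposited log2 values, a variance trend with robust estimation, the replicate block, the mean of a gene's probes, and each array left out.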

Additional observations from a re-analysis of the deposited data

How the results depend on the processing

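With all 6 arrays, the count of 1 member probe called higher and 0 lower held under each of the 7 alternatives run on probes, and EYA4 A_23_P145507 differed by 0.49 to 0.55 (limma adjusted p = 0.00996 to 0.0334). No member gene by its brightest probe was called under any of the 14 alternatives. Leaving out 1 array at a time gave 0 to 1 member probes called higher, 0 among all kept probes for pre-control replicate 2 and each pre-miR-27a array (7178 to 7686 at an unadjusted p under 0.05), and 81 and 1276 calls for pre-control replicates 3 and 1. Differences that changed sign did so within their error: PAX7 ranged from −0.27 to 0.029, EYA1 from −0.053 to 0.22, EYA2 from −0.00079 to 0.23, EYA4 by its brighter probe from −0.052 to 0.11, DACH1 from −0.085 to 0.48 and MEOX2 from −0.0034 to 0.31. The arrays behind the changes were pre-control replicate 2 (PAX7, EYA4, DACH1) and 3 (EYA1, EYA2) and pre-miR-27a replicate 2 (MEOX2) and 3 (PAX7, EYA4, DACH1). Under 75th percentile scaling MEOX2, not well above background, differed by −0.47. The PAX3 difference ranged from 0.19 (normexp) to 0.57 (an array left out), both by probe A_23_P502706, and SIX4 from 0.22 to 0.33, and neither was called. The brightest PAX3 probe was A_23_P209499 without the filter (0.31). It was also the brightest with the filter on probes well above background (0.31) and in the deposited log2 values (0.30). The replicate block changed no member's call. MEOX2 has no value under the filter on probes well above background or in the deposited log2 values, which do not hold its probe.

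Among the lists, genes called lower numbered 1 of 11 other family genes and 4 of 9 satellite cell genes under 75th percentile scaling. That setting called 8.93% of all kept probes, 1275 higher and 1981 lower. Under normexp, which called 9.70%, 1 gene was called lower in each of the 3 lists (of 11 family, 11 target and 9 satellite cell genes). One satellite cell gene was called lower with the filter on probes well above background (1 of 6, against 12.3% of probes) and with the variance trend (1 of 9, against 9.26%). With the replicate block they numbered 1, 2 (with 2 higher) and 3 for family, target and satellite cell genes. All kept probes called numbered 5421 (14.9%) with the block and 2856 (7.83%) without. With 1 array left out, 0 list genes were called. The cause of these changes was not tested. Dim probes (MEOX2, and PAX3 A_23_P502706 and A_24_P362595) are limited by signal over background.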
